A study of Rattus norvegicus with 8 samples.

Results

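Ribosome biogenesis and nucleolar genes, a set of 42 genes whose products copy, modify, cut and assemble ribosomal RNA (rRNA), were followed in rat liver 8 h after partial hepatectomy and at 3 ages. The genes were listed by symbol. Each was read from the probe set that carried its symbol alone and, where there were several, had the highest mean over the arrays. Of the 42, 36 were measured, among 14511 genes in all. Rrp12, Utp20, Pwp2, Nop2, Rrp1b and Pes1 were not analysed here.

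Ribosomes are built in the nucleolus. RNA polymerase I (Pol I) copies the rRNA genes, and small nucleolar ribonucleoproteins (snoRNPs) mark the transcript chemically, box C/D particles by methylation and box H/ACA particles by pseudouridylation. The transcript is then folded, cut and bound by proteins to form the precursors of the small and the large subunit. Cells that prepare to grow and divide make more ribosomes, and the remaining liver is known to enlarge its nucleoli early after hepatectomy. The roles given below were established mainly in yeast and human cells.

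Liver RNA of healthy female Wistar rats, an outbred strain, was hybridised to 8 Affymetrix Rat Gene ST arrays, 2 for each of 4 groups. The groups were the liver left 8 h after partial hepatectomy (PH), after removal of the lateral lobes, and the livers of rats aged 2, 4 and 12 weeks. How old the operated rats were is not stated and sham surgery was not analysed here, so that regeneration, the operation itself and age cannot be told apart. The arrays of a group are titled as biological replicates but the protocol describes collection in duplicate. Their p-values measure only the spread between these arrays, which may be technical.

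All values are levels on the log2 scale from robust multi-array averaging (RMA), so that a difference of 1 is a 2-fold difference. The 8 hepatocyte markers were measured at median levels between 13.30 and 13.57 on every array. Most of them stood near the highest gene level of the data, 14.19, where a difference is hard to see. Hnf4a, the lowest of them, was at 10.47 on the second 4-week array and at 11.21 to 11.82 on the others. The 12-week arrays stood furthest apart: 1838 genes differed at least 2-fold between them, against 432 to 621 between the arrays of the other groups. Receptor genes of smell and taste, 1314 probe sets that serve here as a gauge of background, had a median level of 4.65 and 4.16 after PH, 4.04 and 4.06 at 2 weeks, 4.05 and 3.99 at 4 weeks, and 4.74 and 3.90 at 12 weeks. Whole tissue was measured, in which fewer cells of a type and less RNA per cell cannot be told apart.

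Most members were highest after PH or at 2 weeks. The group mean was highest after PH in 22 of the 36 (over all genes, 26.5% had their highest mean there), at 2 weeks in 13 (26.9% of all genes), at 4 weeks in 0 (23% of all genes) and at 12 weeks in 1, Wdr75 (23.6% of all genes). It was lowest at 4 weeks in 22 members (23.1% of all genes) and at 12 weeks in 14 (22.2%), and in 0 members after PH (24.7%) or at 2 weeks (30%). In 21 members both PH arrays and both 2-week arrays lay above both 4-week arrays, which held for 9.13% of all genes.

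The 12-week livers did not give the members 1 level. On the first 12-week array the median member lay 0.65 below its own mean over the 8 arrays, and on the second it lay 0.15 above it. On the PH arrays the median member lay 0.13 and 0.46 above, on the 2-week arrays 0.04 and 0.35 above, and on the 4-week arrays it stood at -0.35 and -0.27. The first 12-week array was the lowest of all 8 for 23 members (19.8% of all genes), and 34 of 36 members were lower on it than on the second. The second array was also higher than the first for 31 members after PH, 33 at 2 weeks and 21 at 4 weeks. Over all genes, 47% to 48.9% were higher on the second array of a group. From the first to the second array the median member differed by 0.305 after PH, 0.318 at 2 weeks and 0.06 at 4 weeks. The difference between the 12-week arrays reached 2-fold in 10 of 36 members and in 1838 of all 14511 genes. In each other group it did so in 1 member and in 432 to 621 genes. The first 12-week array also had the highest receptor level, and its part in the low member levels was not tested. From the first to the second 12-week array the median member differed by 0.86 and the median gene by -0.02. The second PH array was the highest of all 8 for 21 members, against 9.63% of all genes.

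**Figure D1:**
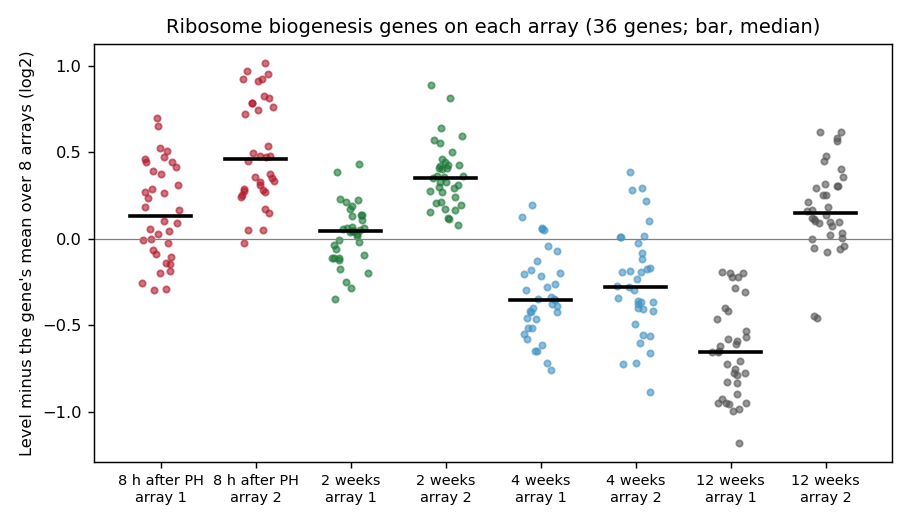
Level of each of the 36 members on each array minus that member's mean over the 8 arrays (log2), with a bar at the median. The medians on the PH and 2-week arrays lie above 0, those on the 4-week arrays and the first 12-week array below it, and the second 12-week array sits at 0.15.

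Polr1a and Polr1b are the largest subunits of Pol I and form its catalytic centre. Polr1a stood at 7.47 and 7.65 on the PH arrays, 7.34 and 7.41 at 2 weeks, 7.13 and 6.48 at 4 weeks, and 6.67 and 7.45 at 12 weeks. Both PH arrays were above all others, the nearest being the second 12-week array. Polr1a differed by 0.76 ± 0.32 between PH and 4 weeks (here and below, differences stand with ± SE from the limma model) and by 0.50 ± 0.32 between PH and 12 weeks, the last being 0.11 without the first 12-week array. Polr1b was highest at 2 weeks, with a mean of 8.22 ± 0.38 (SD, n = 2), against 7.40 ± 0.38 at 4 weeks.

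The box C/D group was highest after PH in all 4 members. Nop56 and Nop58 form the core of the particle, fibrillarin (Fbl) is its methyltransferase, and Rrp9 belongs to a snoRNP that guides cleavage of the small-subunit rRNA. Nop58 had levels of 8.61 and 9.07 after PH, 8.56 and 8.75 at 2 weeks, 7.83 and 8.18 at 4 weeks, and 7.40 and 8.38 at 12 weeks. The PH and 2-week arrays overlapped, and both lay above all 4- and 12-week arrays. Between PH and 12 weeks Nop58 differed by 0.95 ± 0.34, Nop56 by 0.97, Fbl by 0.90 and Rrp9 by 0.73. Without the first 12-week array these differences were 0.46 for Nop58, 0.38 for Nop56, 0.46 for Fbl and 0.32 for Rrp9. Nop56 averaged 10.29 ± 0.27 after PH, against 9.74 ± 0.16 at 2 weeks, 9.28 ± 0.11 at 4 weeks and 9.32 ± 0.83 at 12 weeks (SD, n = 2 each).

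The box H/ACA members differed among themselves. Dkc1, the pseudouridine synthase dyskerin, spanned only 0.49 over the 8 arrays and differed by 0.03 between PH and 4 weeks and by -0.05 between PH and 12 weeks. Nolc1, a nucleolar phosphoprotein that binds both kinds of snoRNP, stood at 8.39 and 8.42 after PH, 8.00 and 8.54 at 2 weeks, 7.30 and 7.39 at 4 weeks, and 7.29 and 8.24 at 12 weeks. Its 4-week arrays and the first 12-week array were low, and the other 5 arrays lay at or above 8.00. Nolc1 differed by 0.93 ± 0.33 between 2 and 4 weeks and by 1.06 ± 0.33 between PH and 4 weeks. Nhp2, a core protein of the particle, had 8.46 and 9.14 after PH, 9.03 and 9.05 at 2 weeks, 8.35 and 8.86 at 4 weeks, and 7.66 and 8.60 at 12 weeks. Only the 2-week arrays of Nhp2 stood clear of both the 4-week and the 12-week ones. The difference between 2 and 12 weeks was 0.91 ± 0.37 and became 0.44 without the first 12-week array. Gar1, another core protein, was highest after PH (7.30 ± 0.21) and lowest at 12 weeks (6.52 ± 0.70; SD, n = 2 each).

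Nucleolin (Ncl) and nucleophosmin (Npm1), abundant nucleolar proteins that bind rRNA and act as chaperones, were the 2 members that were not higher on the second 12-week array than on the first. Ncl stood at 11.91 and 11.69 after PH, 11.25 and 11.33 at 2 weeks, 10.93 and 10.81 at 4 weeks, and 11.01 and 10.75 at 12 weeks. The PH arrays were the highest, the 2-week arrays came next, and the 4- and 12-week arrays overlapped below them. Ncl differed by 0.92 ± 0.22 between PH and 12 weeks (1.89-fold, unadjusted p = 0.00269, adjusted p = 0.3342, limma), and leaving out 1 array at a time gave 0.79 to 1.05. Between PH and 2 weeks it differed by 0.51 ± 0.22. Npm1 was at 11.39 and 11.26 after PH, 11.08 and 11.26 at 2 weeks, 10.66 and 11.31 at 4 weeks, and 10.60 and 10.57 at 12 weeks. The 12-week arrays were its lowest, and the second 4-week array lay between the PH arrays. Npm1 differed by 0.74 ± 0.26 between PH and 12 weeks, by 0.59 ± 0.26 between 2 and 12 weeks and by 0.40 ± 0.26 between 4 and 12 weeks, the last being 0.08 without the second 4-week array. Its other 3 probe sets differed by 0.62 to 0.79 in the first of these comparisons.

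Mybbp1a, a nucleolar protein that binds Pol I and pre-rRNA, had levels of 10.35 and 10.51 after PH, 9.50 and 10.06 at 2 weeks, 9.50 and 8.81 at 4 weeks, and 9.12 and 9.72 at 12 weeks. Both PH arrays stood above all 6 others, which lay between 8.81 and 10.06. Mybbp1a differed by 1.28 ± 0.33 between PH and 4 weeks and by 1.01 ± 0.33 between PH and 12 weeks. Ddx21, an RNA helicase of Pol I transcription and rRNA processing, followed with 1.12 between PH and 4 weeks and 0.97 between PH and 12 weeks, and its second probe set gave 1.14 and 0.92. Without the first 12-week array the Ddx21 difference from 12 weeks was 0.32. Noc2l, whose yeast counterpart takes part in large-subunit export, spanned 0.73: 7.18 and 7.68 after PH, 7.15 and 7.49 at 2 weeks, 7.38 and 6.95 at 4 weeks, and 7.13 and 7.63 at 12 weeks. All of its groups overlapped.

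The small-subunit members hold proteins of the processome, the large particle on nascent pre-rRNA, and later factors. Wdr43, a processome protein, had 8.77 and 8.76 after PH, 8.91 and 8.79 at 2 weeks, 7.93 and 8.40 at 4 weeks, and 7.86 and 8.42 at 12 weeks. The PH and 2-week levels lay close together, and both groups were above all 4- and 12-week arrays. It differed by 0.71 ± 0.27 between 2 and 12 weeks, by 0.68 ± 0.27 between 2 and 4 weeks and by 0.62 ± 0.27 between PH and 12 weeks, the first being 0.43 without the first 12-week array. Heatr1, a processome protein that also aids Pol I transcription, had 8.25 and 8.83 after PH, 7.61 and 8.28 at 2 weeks, 7.10 and 7.26 at 4 weeks, and 7.11 and 8.44 at 12 weeks. Its second 12-week array lay between the PH arrays while its first was as low as the 4-week arrays. Heatr1 differed by 1.36 ± 0.44 between PH and 4 weeks, the largest difference of any member, and by -0.60 ± 0.44 between 4 and 12 weeks, which became 0.07 without the second 12-week array. Bysl, needed for late maturation, differed by 1.03 between PH and 4 weeks and by 0.78 between 2 and 4 weeks. Nop14, Utp15 and Imp4, further processome proteins, differed by 0.59, 0.49 and 0.53 between PH and 4 weeks, and Tsr1, a late factor, by 0.24.

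Wdr75 and Nob1 were among the members with no higher level after PH than at 12 weeks. Wdr75, a processome protein, had the lowest F statistic of the members: 7.22 and 7.41 after PH, 7.25 and 7.57 at 2 weeks, 7.41 and 7.08 at 4 weeks, and 7.14 and 7.81 at 12 weeks. All of its groups overlapped. Nob1, the nuclease that makes the last cut of the small-subunit rRNA, was highest at 2 weeks (8.92 ± 0.54) and lay at 8.33 ± 0.19 after PH, 8.27 ± 0.02 at 4 weeks and 8.44 ± 0.34 at 12 weeks (SD, n = 2 each). It differed by -0.59 between PH and 2 weeks, where both PH arrays lay below both 2-week arrays.

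The large-subunit members include some of the widest differences after PH. Bop1, which forms a complex with Pes1 and Wdr12 needed for large-subunit rRNA processing, had 8.34 and 8.83 after PH, 7.53 and 8.17 at 2 weeks, 7.39 and 7.45 at 4 weeks, and 6.99 and 7.82 at 12 weeks. Its PH arrays were above all others. Bop1 differed by 1.18 ± 0.35 between PH and 12 weeks, by 1.17 ± 0.35 between PH and 4 weeks and by 0.73 ± 0.35 between PH and 2 weeks, the first being 0.76 without the first 12-week array. Its partner Wdr12 spanned 2.09 over the arrays, the widest range of the members, with SDs of 0.37 to 1.12 within groups, and every group overlapped every other.

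Ebna1bp2, an assembly factor of the large subunit, stood at 8.84 and 9.09 after PH, 8.22 and 8.60 at 2 weeks, 7.87 and 7.77 at 4 weeks, and 7.93 and 8.33 at 12 weeks. The PH arrays were the highest and the 4-week arrays the lowest, and neither overlapped another group. It differed by 1.14 ± 0.25 between PH and 4 weeks (2.21-fold, unadjusted p = 0.00159, adjusted p = 0.1377, limma), by 0.84 ± 0.25 between PH and 12 weeks, by 0.59 ± 0.25 between 2 and 4 weeks and by 0.56 ± 0.25 between PH and 2 weeks. A second probe set of Ebna1bp2 (mean level 6.73) gave smaller differences: 0.39 between PH and 4 weeks, 0.63 between PH and 12 weeks, 0.21 between 2 and 4 weeks and 0.18 between PH and 2 weeks. Between 4 and 12 weeks the 2 probe sets differed in sign, with 0.24 for the second and -0.31 for the first.

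Gnl3, the nucleolar GTPase nucleostemin, was low on the first 12-week array alone: it had 8.59 and 8.82 after PH, 8.61 and 8.82 at 2 weeks, 8.74 and 8.56 at 4 weeks, and 7.59 and 8.62 at 12 weeks. Its difference between 4 and 12 weeks, 0.54 ± 0.33, was 0.03 without that array. A second probe set of Gnl3 (mean level 4.18) gave -0.03 between PH and 4 weeks and -0.02 between 2 and 4 weeks. The probe set used gave 0.06 in both. Ftsj3, an rRNA methyltransferase, differed by 1.22 between PH and 4 weeks and by 1.04 between PH and 12 weeks (0.57 without the first 12-week array). Noc3l, Nip7 and Gnl2, factors of large-subunit assembly, were highest at 2 weeks, and between PH and 4 weeks they differed by 0.04, 0.20 and 0.32. The RNA helicases Ddx18 and Ddx56 differed by 0.58 and 0.47 there, and the assembly factors Nop16 and Rrs1 by 0.48 and 0.40. Second probe sets of Nop16 and Nip7 disagreed in size between PH and 12 weeks, with 0.24 against 0.66 for Nop16 and 0.57 against 0.16 for Nip7. The second probe set of Nop16 also gave -0.03 against 0.39 between 2 and 12 weeks and -0.01 against 0.20 between 2 and 4 weeks.

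**Figure D2:**
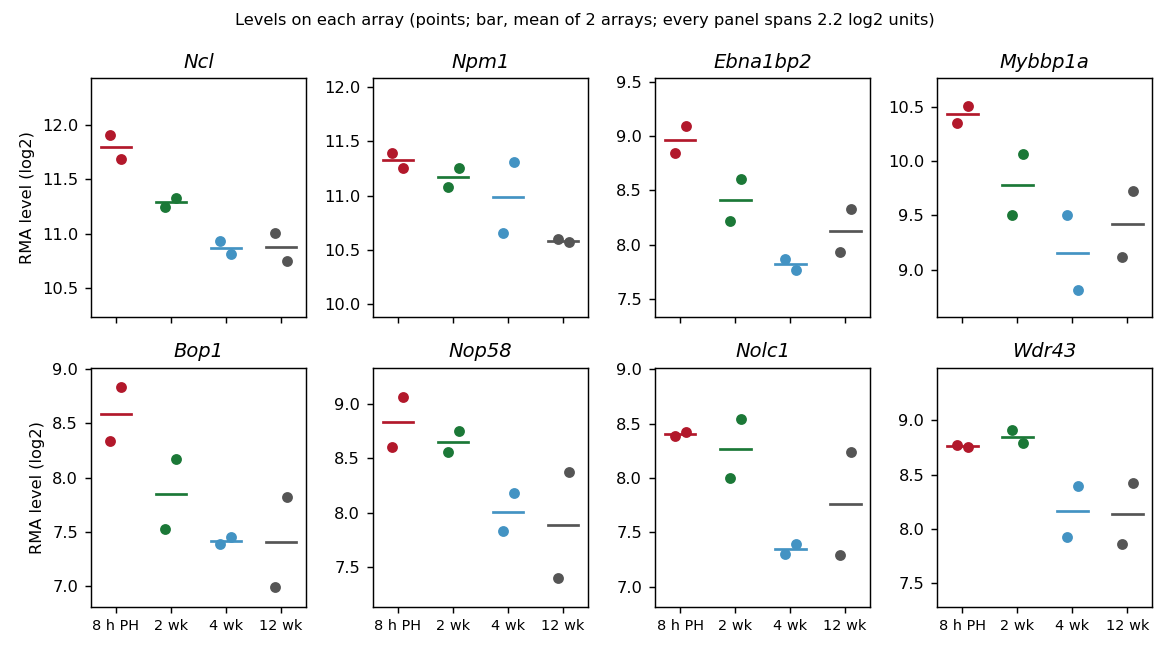
Levels of 8 members on each array (points, log2 RMA level; bar, mean of the 2 arrays), PH at the left of the ages. Ncl, Ebna1bp2, Mybbp1a and Bop1 have both PH points above all others, Wdr43 and Nop58 have PH and 2 weeks above 4 and 12 weeks, and the 12-week points of Npm1 lie together at 10.60 and 10.57.

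All 36 members were above 0 between the liver 8 h after PH and the 4-week liver. With 75th percentile scaling 35 were, and with quantile normalization 34. Without rescaling the median difference was 0.58, with a range of 0.03 to 1.36, while the median over all genes was -0.01. Both PH arrays lay above both 4-week arrays in 23 members, 63.9%, against 21.6% of all genes, and the reverse held for 0 members and 22.5% of all genes. These 23 were both Pol I subunits, all 4 box C/D members, 1 of 4 box H/ACA members, 3 of 5 chaperones and regulators, 5 of 9 small-subunit and 8 of 12 large-subunit members. In limma 0 members passed an adjusted p of 0.05 (0.31% of all genes did), and the lowest adjusted p was 0.1377. At an unadjusted p under 0.05 there were 14 members, 38.9%, against 10.2% of all genes, and 5 without the second PH array (13.9%, against 7.24%). Array by array, the first PH array exceeded the 4-week arrays by medians of 0.53 and 0.30 and the second by 0.77 and 0.70, with 29 to 35 members above 0. Once the model held the receptor median of each array as a covariate, the median was 0.93. Then 10 members passed (1.88% of all genes did): Heatr1, Ftsj3, Ddx21, Bysl, Bop1, Nop56, Ebna1bp2, Rrp9, Nop58 and Imp4. Within groups the receptor level differed most between the 12-week arrays (4.74 and 3.90), then between the PH arrays (4.65 and 4.16). Here and below, the slope of this covariate therefore rests mainly on the 12-week arrays, which are not part of this comparison.

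Between 2 and 4 weeks all 36 members were again above 0 (34 with 75th percentile scaling and 35 with quantile normalization). The median was 0.47 with a range of 0.05 to 0.93, against 0.00 over all genes. Over genes at or above the median level, which include all members, the median was 0.08 with 58.8% above 0. Both 2-week arrays lay above both 4-week arrays in 27 members, 75%, against 20.1% of all genes, and below them in 0 members (20.1% of all genes). Nolc1 (0.93 ± 0.33), Polr1b (0.83), Bysl (0.78), Heatr1 (0.77 ± 0.44) and Ftsj3 (0.73) differed most, and Gar1 (0.05) and Gnl3 (0.06) least. In limma 0 members passed (0.455% of all genes did; lowest adjusted p = 0.5375, Nolc1) and 3 had an unadjusted p under 0.05, 8.33%, against 7.24% of all genes. The count of 3 varied between fits that kept 2 arrays in each group. It was 12 with only the groups compared (33.3%, against 9.24% of all genes) and 11 with a replicate block (30.6%, against 9.91%). With the receptor covariate it was 16 (44.4%, against 12.7%), and with median centring 4 (11.1%, against 7.36%). It was 1 with a variance trend (2.78%, against 7.09%). The count was 2 (5.56%) with 75th percentile scaling, quantile normalization, the level filter or the mean of a gene's probe sets, against 7.19% to 8.82% of all genes. The first 2-week array exceeded the 4-week arrays by medians of 0.37 and 0.34 and the second by 0.73 and 0.57. The 4-week arrays served in both comparisons, so the 2 sets of values share them.

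**Figure D3:**
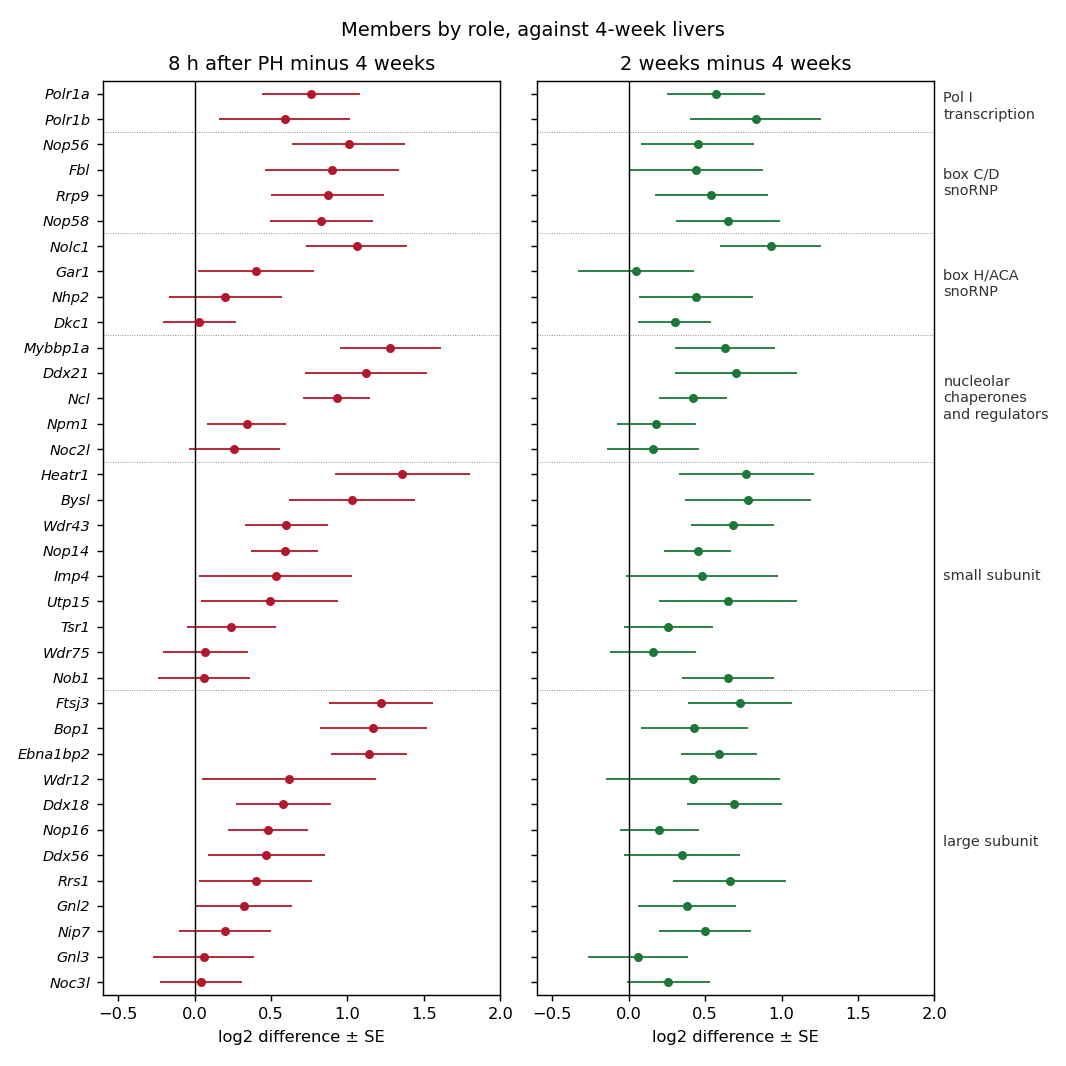
Log2 difference with its SE for each member, grouped by role, 8 h after PH (left) and at 2 weeks (right) against 4 weeks. Every point lies above 0, from 0.03 (Dkc1) to 1.36 (Heatr1) after PH and from 0.05 (Gar1) to 0.93 (Nolc1) at 2 weeks.

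Against the 12-week liver the values after PH depended on which 12-week array was used. The median member difference was 0.62 (range -0.16 to 1.18; all genes 0.00), and 33 of 36 members were above 0, the others being Wdr75 (-0.16), Nob1 (-0.11) and Dkc1 (-0.05). Without the first 12-week array the median was 0.11 with 23 members above 0, and without the second it was 1.03 with all 36. Set array by array, the first PH array exceeded the first 12-week array by a median of 0.86 and differed by -0.08 from the second, with 16 of 36 members above it. The second PH array exceeded them by 1.14 and 0.32. Both PH arrays lay above both 12-week arrays in 16 members, 44.4%, against 13.7% of all genes, and below in 0 (15.2% of all genes). By role the median was 0.93 for box C/D members, 0.92 for chaperones and regulators, 0.65 for box H/ACA, 0.54 for the large and 0.39 for the small subunit and 0.34 for Pol I. In limma 0 members passed (0.0345% of all genes did), and 11 had an unadjusted p under 0.05, 30.6%, against 6.01% of all genes. That count was 1 without the second PH array (2.78%, against 3.83% of all genes) and 3 without the first 12-week array (8.33%, against 8.94%).

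**Figure D4:**
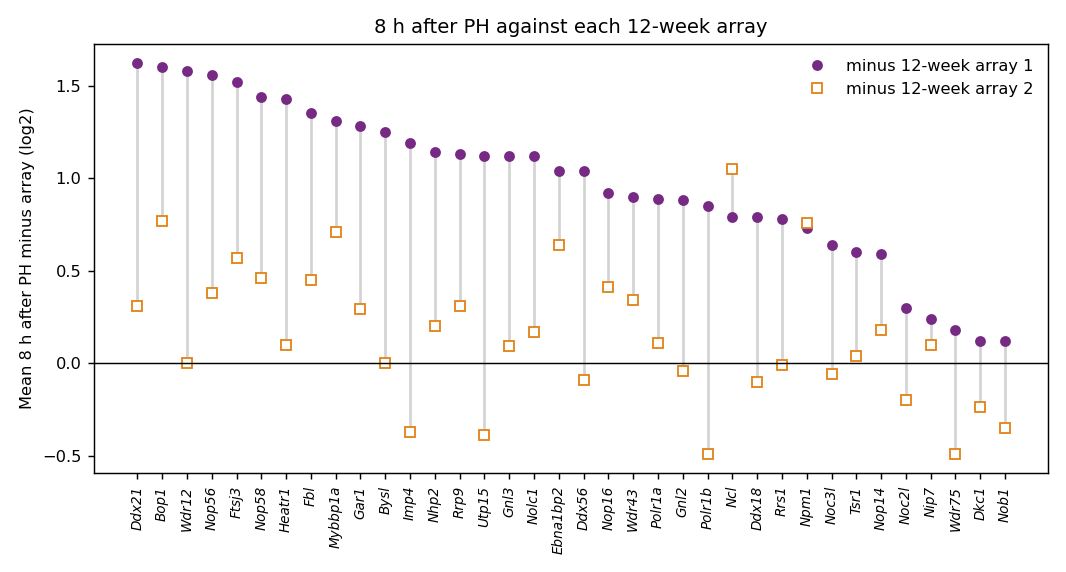
Mean of the 2 PH arrays minus the first (filled circles) and the second (open squares) 12-week array for each member (log2), ordered by the first. All circles are above 0, the squares spread on both sides of 0, and Ncl and Npm1 are the members whose square is not below the circle.

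The 2-week liver showed the same dependence. Its median difference from 12 weeks was 0.43 with 34 of 36 members above 0. The median over all genes was -0.01, and over genes at or above the median level 0.09. Without the first 12-week array the member median was 0.03, and without the second 0.89. Both 2-week arrays were above both 12-week arrays in 9 members, 25%, against 17.6% of all genes, and below them in 0 (16.8% of all genes). The 9 were Ncl, Npm1, Nop58, Wdr43, Nhp2, Nip7, Noc3l, Nop16 and Dkc1. In limma 0 members passed (2.23% of all genes did; lowest adjusted p = 0.3523, Wdr43), and 2, Wdr43 and Nhp2, had an unadjusted p under 0.05, 5.56% of members against 11.1% of all genes. Between 4 and 12 weeks the median was -0.06 (all genes 0.00), -0.46 without the first 12-week array and 0.33 without the second. In that comparison 34 of 36 members overlapped, 1, Npm1, was higher at 4 weeks (13.7% of all genes) and 1, Ebna1bp2, lower (11.3%) on the probe set used, though not on its second one. There limma passed 0 members (0.11% of all genes) with 0 members at an unadjusted p under 0.05 (4.47%).

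Between the liver 8 h after PH and the 2-week liver 22 of 36 members were above 0. The median difference was 0.14 (all genes 0.03), and it ran from -0.08 to 0.26 when 1 array was left out. With the receptor covariate it was 0.41, with 32 of 36 above 0 and 14 at an unadjusted p under 0.05 (38.9%, against 16% of all genes), and the lowest adjusted p was 0.0635. All 4 box C/D members (median 0.39) and all 5 chaperones and regulators (median 0.42) were above 0, against 6 of 12 large-subunit, 4 of 9 small-subunit and 2 of 4 box H/ACA members. Both PH arrays were above both 2-week arrays in 11 members, 30.6%, against 24.6% of all genes, and below in 3, Nob1, Dkc1 and Wdr43, 8.33%, against 22.2% of all genes. In limma 0 members passed (2.16% of all genes did; lowest adjusted p = 0.4175, Ncl) and 1, Ncl, had an unadjusted p under 0.05, 2.78%, against 11.6% of all genes. Across all 4 groups at once the F test passed 0 members (1.79% of all genes), and 6 had an unadjusted p under 0.05, 16.7%, against 11% of all genes. With the receptor covariate 6 members passed the F test, Ftsj3, Nop56, Heatr1, Bysl, Nop58 and Ddx21, where 3.3% of all genes did. The highest F values were those of Ncl (8.14) and Ebna1bp2 (7.67).

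Since the members shared a direction against the 4-week liver, their promoters were searched for motifs. MYC, a transcription factor that drives ribosome production, binds CACGTG, the E-box, and ETS factors bind CCGGAAG, both common in promoters of housekeeping genes. Windows of 250 bases before to 50 after the start were taken from RefSeq on GRCr8, and 32 of the 36 measured members had one. CACGTG, which reads alike on both strands, occurred in 10 of 32, 31.2%, against 7.87% of 11972 promoters of genes measured here. CCGGAAG on either strand occurred in 15, 46.9%, against 12.9%. The NRF1 motif, also searched, occurred in 1, 3.12%, against 1.39%. The members' windows held a median of 21.5 CpG dinucleotides, against 16 over the measured genes, and both shorter motifs contain CpG. Among measured genes with at least the median number of CpG, 11% had CACGTG and 20.2% CCGGAAG. In a wider list of ribosome biogenesis genes, described below, 24.1% of 83 promoters had CACGTG and 49.4% CCGGAAG. A match describes the letters and is no evidence of binding.

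The 11 E-boxes of the 10 members are shown with 10 bases on either side, in the direction of the gene, to let their flanks be compared. Capitals mark CACGTG.
Bysl, chr9:20880363-20880388, plus strand: gccggcttcaCACGTGtaaactttgt
Ddx18, chr13:35295970-35295995, minus strand: cggaactgcgCACGTGcatctgtcgc
Dkc1, chrX:157751457-157751482, plus strand: cgtcccggcgCACGTGcgggccccac
Ebna1bp2, chr5:137433554-137433579, plus strand: gtcttgctggCACGTGgagtggcagc
Fbl, chr1:92597418-92597443, plus strand: cgcttttttcCACGTGtgaaagcctg
Gnl3, chr16:6219792-6219817, minus strand: ttccagttcgCACGTGgcgcccgaga
Mybbp1a, chr10:57555292-57555317, plus strand: agtttctacaCACGTGtgcgagcaca
Mybbp1a, chr10:57555447-57555472, plus strand: ctttcgagccCACGTGtttggttcag
Noc3l, chr1:245997675-245997700, minus strand: gagctctgggCACGTGtgtgtttcct
Tsr1, chr10:60258800-60258825, plus strand: ttactcggtgCACGTGggcagttaga
Wdr75, chr9:55395062-55395087, plus strand: actctttctaCACGTGttttaatttg
They begin, counted from the start of the gene as 1, at 33 in Bysl, -13 in Ddx18, -184 in Dkc1, 31 in Ebna1bp2, 22 in Fbl, -25 in Gnl3, -156 and -1 in Mybbp1a, 19 in Noc3l, 21 in Tsr1 and -160 in Wdr75. In 8 of the 10 genes an E-box lies within the last 25 bases before the start or in the first 50 after it, and in Dkc1 and Wdr75 the sole match lies further upstream. The members with CACGTG had a median difference of 0.41 between PH and 4 weeks and those without it 0.59, and between 2 and 4 weeks 0.37 against 0.49. Wdr75, with the lowest F, holds an E-box, while Ncl, with the highest F, has neither CACGTG nor CCGGAAG in its window. Ebna1bp2, with the next highest F, holds both motifs, and Mybbp1a, which follows it, holds E-boxes. Whether a motif bears on the differences was not tested.

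The whole windows of Ebna1bp2 (chr5:137433284-137433583, plus strand) and Mybbp1a (chr10:57555208-57555507, plus strand) are shown. The rule took members holding CACGTG among the 3 with the highest absolute t between PH and 12 weeks or between 2 and 4 weeks. Only Ebna1bp2 met it. Mybbp1a was added after its 2 matches were seen. Capitals mark CACGTG and CCGGAAG on either strand.
Ebna1bp2: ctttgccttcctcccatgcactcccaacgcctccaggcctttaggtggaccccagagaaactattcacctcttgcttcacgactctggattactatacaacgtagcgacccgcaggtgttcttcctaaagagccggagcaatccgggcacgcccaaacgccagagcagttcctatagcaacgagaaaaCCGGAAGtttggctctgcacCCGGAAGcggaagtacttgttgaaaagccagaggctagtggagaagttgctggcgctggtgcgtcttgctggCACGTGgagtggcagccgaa
Mybbp1a: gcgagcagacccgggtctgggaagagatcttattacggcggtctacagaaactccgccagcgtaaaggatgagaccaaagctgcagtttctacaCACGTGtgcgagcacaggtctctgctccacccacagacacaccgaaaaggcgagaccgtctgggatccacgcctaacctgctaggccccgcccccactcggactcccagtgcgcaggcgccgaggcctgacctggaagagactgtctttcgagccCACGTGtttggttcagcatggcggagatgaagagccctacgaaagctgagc
Ebna1bp2 carries 2 ETS motifs, at -62 and -42, upstream of its E-box at 31, and Mybbp1a carries no ETS motif but an E-box across the start itself.

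A wider list of ribosome biogenesis genes shares no gene with the members. It holds genes of Pol I transcription, the small and the large subunit and the RNA exosome. The list had smaller medians of the same sign against 4 and 12 weeks. Of 118 listed, 96 were measured. Their median difference was 0.29 between PH and 4 weeks with 81 above 0 (0.10 with 57 above 0 without the second PH array, and 0.16 with 62 without the first 4-week array), 0.35 between 2 and 4 weeks with 83 above 0, 0.31 between PH and 12 weeks with 82 above 0, and -0.04 between PH and 2 weeks with 45 above 0. Over all genes, 49.2% to 53.1% were above 0 in these comparisons. By role the median of the list between PH and 4 weeks was 0.40 for the small and 0.27 for the large subunit. It was 0.10 for Pol I transcription and 0.10 for the RNA exosome. In limma 0 of the 96 passed in each of the 6 comparisons, where 0.0345% to 2.23% of all genes did. With the receptor covariate 5 passed between PH and 4 weeks (1.88% of all genes did) and 2 passed the F test (3.3% did). The list's median between PH and 2 weeks was then 0.31 with 85 above 0 (50% of all genes). At an unadjusted p under 0.05 there were 12 between PH and 4 weeks, 12.5%, against 10.2% of all genes, and 4 between PH and 12 weeks, 4.17%, against 6.01%. The median between PH and 12 weeks was -0.11 when the first 12-week array was left out, 0.72 when its partner was, and 0.08 without the second PH array.

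Pno1, Ltv1 and Mrto4 had the highest absolute t of this list between PH and 12 weeks. Pno1, a partner of Nob1 on the small-subunit precursor, stood at 8.86 and 9.70 after PH and 6.97 and 8.61 at 12 weeks and differed by 1.49 ± 0.56, or 0.67 without the first 12-week array. Ltv1, which helps export the small subunit, had 8.18 and 8.15 after PH and 7.40 and 7.63 at 12 weeks and differed by 0.65 ± 0.21. It also stood at 8.12 and 7.95 at 2 weeks and 7.43 and 7.26 at 4 weeks, so that the PH and 2-week arrays were all above the 4- and 12-week arrays. Mrto4, a factor of the large-subunit stalk, differed by 0.82 ± 0.32, at 7.99 and 8.67 after PH and 7.15 and 7.87 at 12 weeks, and by 0.46 without the first 12-week array.

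Blood-forming and stromal markers differed among the groups. The summed log2 levels of the erythroid markers (6 of 8 measured) were 35.6 and 35.5 after PH, 52.5 and 47.7 at 2 weeks, 44.2 and 46.9 at 4 weeks, and 37.0 and 39.3 at 12 weeks. Those of the stellate cell markers (8 of 8) were 61.4 and 62.3 after PH, 72.7 and 70.5 at 2 weeks, 73.8 and 65.3 at 4 weeks, and 61.9 and 61.7 at 12 weeks. Neutrophil markers (8 of 8) summed to 59.8 and 45.6 at 2 weeks and to between 39.3 and 45.1 on the other arrays, and lymphocyte markers (7 of 8) to 46.3 on the second 12-week array and to between 39.0 and 42.3 on the others. Macrophage sums (8 of 8) ran from 71.9 to 75.9, endothelial sums (5 of 8) from 44.2 to 47.3 and cholangiocyte sums (7 of 8) from 39.5 to 48.0. RMA lists no gene at 0. The highest cholangiocyte sum was that of the first 4-week array, where Spp1 stood at 11.77, against 5.52 to 6.99 on the others. Erythroid and stellate sums were low after PH and at 12 weeks and higher on every 2- and 4-week array. The part of these cell types in the member differences was not tested.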

How the data were processed

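The authors deposited 1 log2 level per probe set and array, computed with RMA, and the submitters' processing notes also name Affymetrix Expression Console. No version, filter or genome build is stated. The table held 29214 probe sets, of which 15316 had 1 gene symbol, 317 several and 13581 none in the platform annotation used. Of the single symbols 15285 matched the GRCr8 gene table. The probe set with the highest mean stood for a gene, which left 14511 genes. All 36 measured members had a mean level at or above the median gene (6.75), and 6 had several probe sets.

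The 6 comparisons are contrasts of 1 linear model of 4 groups, run on all 8 arrays in limma (version 3.58.1, under R 4.3.3), with 4 residual and 4.27 prior degrees of freedom. Tests are two-sided, and p-values were adjusted by Benjamini-Hochberg over all 14511 genes, with a threshold of 0.05. The SE is the moderated one. Precision is limited by the number of arrays. The fit was tested on simulated data. Alternatives left out each array, rescaled the arrays, added a replicate block or a covariate (the receptor median of each array), and changed the level filter, the probe set rule, the variance trend, the arrays fitted and the threshold.

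The members and lists were chosen with earlier results of these data known. Full array values are given for the 3 members with the highest absolute t in each comparison, the member with the highest F in each role and the 2 with the lowest F, and for the 3 genes of the wider list with the highest absolute t between PH and 12 weeks.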

Additional observations from a re-analysis of the deposited data

How the results depend on the processing

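The median member difference kept its direction between PH and 4 weeks and between 2 and 4 weeks. It was 0.44 to 0.93 and 0.34 to 0.66 over 8 refits, each without 1 array, and 10 other alternatives. Refits without an array of another group could not move it, as a difference of group means uses only its own arrays. Nor could the replicate block, the variance trend, the level filter, testing all probe sets, fitting only the groups compared or the stricter threshold. With 1 array left out the median ran from 0.11 to 1.03 between PH and 12 weeks. It ran from 0.03 to 0.89 between 2 and 12 weeks and from -0.46 to 0.33 between 4 and 12 weeks. Between PH and 2 weeks it ran from -0.08 to 0.26. The low and the high end of the first 3 ranges came from leaving out the first and the second 12-week array. The slope of the receptor covariate rests mainly on the 12-week arrays. With the receptor covariate the median was 0.41 between PH and 2 weeks, 0.17 between 2 and 12 weeks, -0.36 between 4 and 12 weeks and 0.93 between PH and 4 weeks, 10 members passed in the last and 6 passed the F test, Ebna1bp2 differed by 1.32 (adjusted p = 0.04147), and the cause was not tested. The count of members passing was 0 under every other alternative. Heatr1 between 4 and 12 weeks was -1.26 without the first and 0.07 without the second 12-week array, and the cause was not tested.

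A replicate block cannot move a median here, because each group holds 1 array of each number (0.62 remained between PH and 12 weeks). It passed 0 members. With it and without it the calls over all genes were 41 and 5 between PH and 12 weeks. They were 515 and 323 between 2 and 12 weeks and 30 and 16 between 4 and 12 weeks. Between 2 and 4 weeks they were 129 and 66. They were 143 and 45 between PH and 4 weeks and 498 and 313 between PH and 2 weeks. The block passed 1 of the 96 genes of the wider list between PH and 4 weeks (0.985% of all genes). It passed 1 in the F test (3.35% of all genes). Equal replicate numbers deviated together with r between 0.023 and 0.568 over all genes and between 0.061 and 0.587 over the members. Genes are not independent replicates, and nothing in the labels says that equal replicate numbers share an animal or day. Low levels close to background are compressed by RMA, and no detection calls were used here.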
